A study of Mus musculus with 3 samples.

Results

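The IFIT and OAS antiviral families were described here through 10 mouse genes chosen by name: Ifit1, Ifit2, Ifit3 and Ifit3b of the IFIT family, Oas1a, Oas1g, Oas2 and Oas3 of the OAS family, and the OAS-like genes Oasl1 and Oasl2. All 10 were found among the 55536 annotated genes of the gene tables, of which 22028 are protein-coding. RNA was measured by total RNA sequencing, after depletion of ribosomal RNA, in the chromatin fraction of bone marrow-derived macrophages, which are primary cells grown from marrow of C57BL/6J mice. There was 1 group, with 3 libraries called biological replicates 1, 2 and 3 in the labels. All cells had received Lipid A, the endotoxin part of bacterial lipopolysaccharide, at 100 ng/ml for 12 h, had then been left without it for 12 h after washing, and had received it again at 100 ng/ml for 20 min. Unstimulated cells and cells given Lipid A once were not analysed here, so the values are levels after the second exposure and not effects of it. The 3 libraries carry the same donor entry, so the spread between them may be partly technical.

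IFIT proteins, named as interferon-induced proteins with tetratricopeptide repeats, bind viral RNA. IFIT1 recognises RNA whose 5′ cap lacks the methyl marks that host mRNA carries, and other IFIT proteins join it in complexes. OAS enzymes sense double-stranded RNA and make 2-5A, a short chain of adenosines joined by unusual 2′-5′ bonds, which acts as a signal that leads to the cutting of viral and cellular RNA. In macrophages both families are classic targets of type I interferon: TLR4 signalling leads to interferon beta, and the interferon receptor then acts through the transcription factor complex ISGF3. ISGF3 binds interferon-stimulated response elements, which contain repeats of GAAA on one strand or TTTC on the other.

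The genes lie in 3 clusters, given here in mm10 coordinates. The Ifit cluster spans chr19:34550694-34650009, which is 99.3 kb with 6 family genes. The Oas cluster spans chr5:120730333-120921652, 191.3 kb with 10 family genes. Oasl1 and Oasl2 are neighbours in 41.0 kb at chr5:114896936-114937915.

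**Figure D1:**
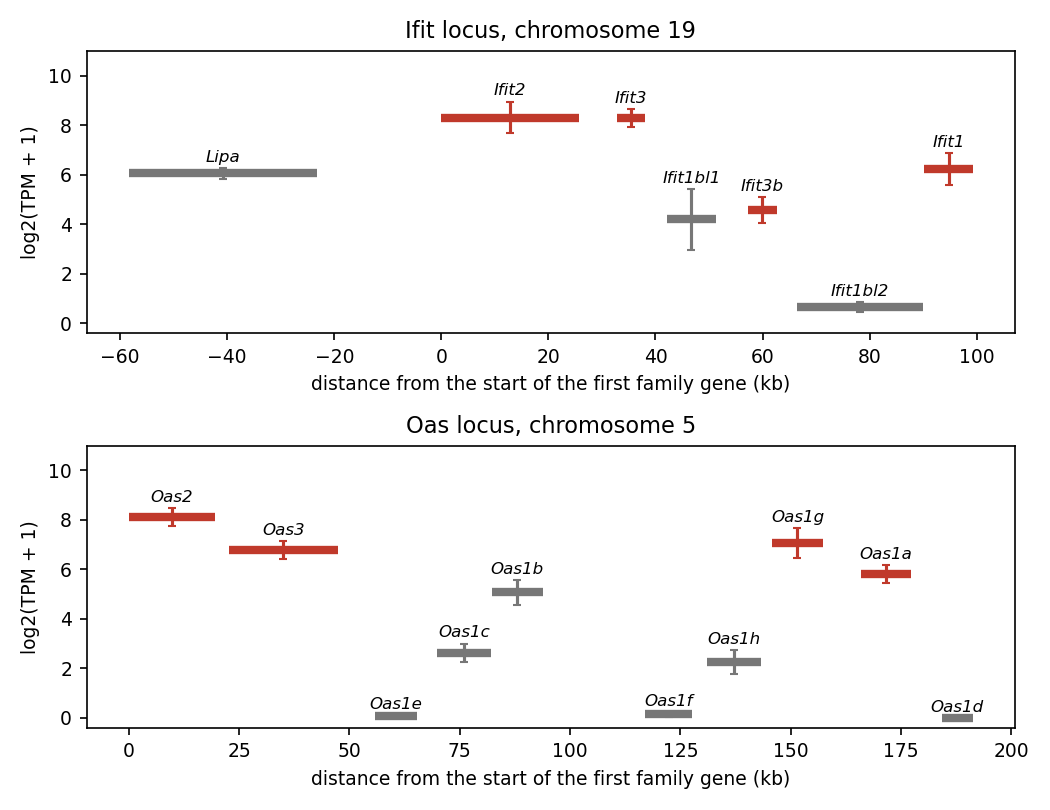
The Ifit cluster with its neighbour Lipa and the Oas cluster: the x axis is the distance in kb from the start of the first family gene, each bar spans a gene, its height on the y axis is the mean log2(TPM + 1), and the whiskers are ± SD over 3 libraries. Those of the 10 genes that lie in these clusters are red and the others grey, and Oasl1 and Oasl2 are not drawn. Ifit2 and Ifit3 stand highest in the Ifit cluster, and Oas2, Oas1g and Oas3 in the Oas cluster, while Ifit1bl2, Oas1d, Oas1e and Oas1f lie near 0.

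The promoters of 2 similar gene pairs are shown because the pairs share both sequence and motif matches. Windows came from RefSeq for GRCm38.p6, the assembly that mm10 stands for, and 9 of the 10 genes matched an entry, all but Oas2. Each sequence below is the 250 bases before the transcript start, 5′ to 3′ on the gene's strand. Capitals mark each match to GAAANNGAAA on either strand, that is 2 copies of GAAA with 2 bases between them, read as TTTCNNTTTC where the element lies on the other strand. Matches may overlap.

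The Ifit3 pair shares the letters and the spacing of 2 matches on the strand opposite to the gene. Ifit3 is at chr19:34583279-34583528 on the plus strand and Ifit3b at chr19:34607707-34607956 on the plus strand.
Ifit3: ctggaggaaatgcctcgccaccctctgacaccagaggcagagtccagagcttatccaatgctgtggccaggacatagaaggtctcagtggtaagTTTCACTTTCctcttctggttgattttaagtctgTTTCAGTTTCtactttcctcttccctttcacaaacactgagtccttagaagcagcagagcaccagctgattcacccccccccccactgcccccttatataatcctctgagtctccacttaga
Ifit3b: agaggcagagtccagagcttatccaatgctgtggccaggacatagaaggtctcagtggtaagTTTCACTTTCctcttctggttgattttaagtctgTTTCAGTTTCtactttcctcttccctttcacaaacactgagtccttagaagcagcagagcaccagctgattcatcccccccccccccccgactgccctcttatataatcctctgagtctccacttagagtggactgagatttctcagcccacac
The first match begins 156 bases before the start of Ifit3 and 188 bases before that of Ifit3b, and the other begins 122 and 154 bases before them. The windows of 300 bases aligned at 258 of 274 columns (94.2% identity), with 2 mismatches and 14 gap bases.

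Ifit1, which does not share this degree of similarity with its neighbours, has the same 2 ten-letter matches at another spacing. Its window is chr19:34640639-34640888 on the plus strand.
Ifit1: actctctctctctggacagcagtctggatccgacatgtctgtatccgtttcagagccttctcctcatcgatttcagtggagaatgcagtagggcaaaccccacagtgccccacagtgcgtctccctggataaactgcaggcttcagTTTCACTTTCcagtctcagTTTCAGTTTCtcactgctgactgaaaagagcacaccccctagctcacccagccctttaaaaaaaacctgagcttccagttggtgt
The matches begin 104 and 85 bases before the start.

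In the Oas1 pair the matches overlap and sit next to the transcript start. Oas1a is at chr5:120907526-120907775 and Oas1g at chr5:120887614-120887863, both on the minus strand.
Oas1a: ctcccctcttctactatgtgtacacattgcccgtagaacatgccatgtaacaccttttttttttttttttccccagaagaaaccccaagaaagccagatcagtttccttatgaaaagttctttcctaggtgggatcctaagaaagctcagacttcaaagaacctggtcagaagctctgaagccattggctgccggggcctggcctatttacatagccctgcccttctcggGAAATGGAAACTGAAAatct
Oas1g: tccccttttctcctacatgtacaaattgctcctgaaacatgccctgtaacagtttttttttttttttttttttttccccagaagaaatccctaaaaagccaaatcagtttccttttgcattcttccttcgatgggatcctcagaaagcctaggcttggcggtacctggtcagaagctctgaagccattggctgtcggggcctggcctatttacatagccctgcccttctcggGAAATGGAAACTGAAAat
The overlapping matches begin 20 and 14 bases before the start of Oas1a, and 18 and 12 bases before that of Oas1g. The Oas1 windows aligned at 261 of 303 columns (86.1% identity), with 33 mismatches and 9 gap bases.

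Oas3 had a single match, GAAAACGAAA, 75 bases before its start. In all, 6 of the 9 genes with an entry had at least 1 match, against 3.99% of the 27025 genes with a window, and 5 had 2 or more, against 0.266% of genes. These counts include both genes of the Ifit3 and Oas1 pairs, whose windows are alike, so they are not counts of independent sequences. In the Oas1 pair the 2 matches are an overlapping run. The windows of Ifit2, Oasl1 and Oasl2 held no match, which says only that these letters are not in them. A match is a description of the sequence, and no binding was measured.

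Every gene of the list was present in every library. All 10 reached 1 TPM (TPM is a transcript level scaled for transcript length and to a fixed total per library) in each library, against 45.2% of protein-coding genes. Their median level was 149 TPM, against 0.677 TPM for all protein-coding genes. On the log2(TPM + 1) scale the list median lay 7.05, 5.99 and 6.22 above the median protein-coding gene in replicates 1, 2 and 3. Ranks among the 22028 protein-coding genes ran from 27 for Oasl2 to 2917 for Ifit3b. Levels below are mean ± SD over the 3 libraries (n = 3), with the values of replicates 1, 2 and 3 in that order.

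Among the IFIT genes, Ifit2 was the most abundant. Ifit2, whose protein binds RNA and is known for promoting cell death, had 520, 222 and 270 TPM, a mean of 337 ± 160. Ifit3, whose protein stabilises IFIT1 complexes, had 415, 267 and 268 TPM, a mean of 317 ± 85.4. Replicate 1 was highest for both genes, and their ranges overlapped. Ifit1, the sensor of incompletely methylated caps, had 125, 56.5 and 56.4 TPM, a mean of 79.2 ± 39.4, so Ifit2 lay 4.29 ± 0.45 times above it within the same library. Ifit3b, the close copy of Ifit3, had 34.8, 17.6 and 19.1 TPM, a mean of 23.9 ± 9.52, the lowest of the 10 genes. The IFIT order by mean was the same in the second quantification, a separate set of transcript tables deposited with the libraries, where Ifit2 had 249 ± 113 TPM and Ifit3b 22.0 ± 7.51.

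Among the 4 genes of the OAS family, which leave out the OAS-like pair, Oas2 was the most abundant. Oas2, whose protein has a tandem pair of synthetase units, had 337, 206 and 293 TPM, a mean of 279 ± 66.9. Oas1g had 207, 90.0 and 128 TPM, a mean of 142 ± 59.6. Oas3, the longest synthetase and a sensor of long double-stranded RNA, had 145, 87.8 and 104 TPM, a mean of 112 ± 29.4. Oas1a had 69.0, 41.6 and 59.2 TPM, a mean of 56.6 ± 13.9. In TPM replicate 2 was lowest for each of the 4 genes, and Oas2 lay above the other 3 in each library. That low place is partly common to all genes. On the log2(TPM + 1) scale the median protein-coding gene averaging 50 counts or more was 0.29 higher in replicate 1 than in replicate 2. It was 0.26 higher in replicate 3. In CPM, a unit explained below, Oas3 was lowest in replicate 3.

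By whole-gene level the OAS-like pair differed from each other by several fold. Oasl2 had 732, 361 and 537 TPM, a mean of 543 ± 186, the highest of the 10 genes. Oasl1, whose protein has no synthetase activity and is known in mice to hold back translation of Irf7, had 238, 106 and 123 TPM, a mean of 156 ± 72.1. The ratio of Oasl2 to Oasl1 was 3.07, 3.42 and 4.35, and it was 2.92 ± 0.53 (SD, n = 3) in the second quantification. This excess was for whole genes and was not seen for protein-coding transcripts, as given below.

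**Figure D2:**
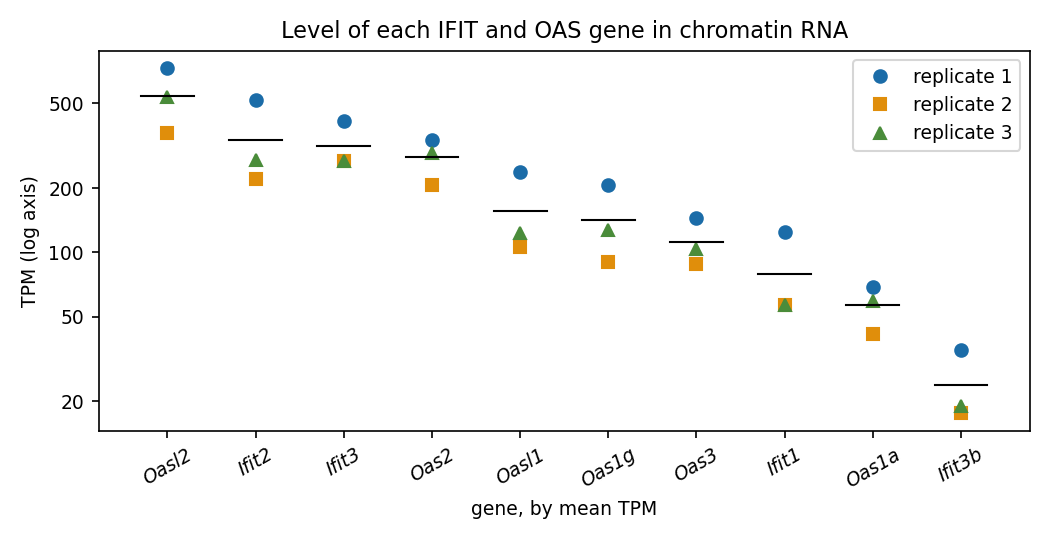
Level of each gene in TPM on a log10 axis; points are the 3 libraries, and the black bar is their mean. Genes are ordered by mean, from Oasl2 at 543 TPM to Ifit3b at 23.9 TPM, and neighbouring ranges overlap except between Oas1a and Ifit3b.

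By mean level the order was Oasl2, Ifit2, Ifit3, Oas2, Oasl1, Oas1g, Oas3, Ifit1, Oas1a and Ifit3b. Since library differences were shared by the genes, the order was also read within each library. Oasl2 exceeded Ifit2, Oas2 exceeded Oasl1, Oas1g exceeded Oas3, Oas3 exceeded Ifit1, and Oas1a exceeded Ifit3b in 3 of 3 libraries. The remaining neighbours kept their order in 2 of 3 libraries. Only Oas1a and Ifit3b had ranges over the libraries that did not overlap. Such ranges leave aside the library differences that the genes shared. With 3 libraries, no place in this order was tested. In the second quantification Ifit3 and Oas2 changed places, at 235 ± 63.8 and 241 ± 46.2 TPM, and no other place changed.

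The similarity of the gene pairs bears on how reads can be divided. Of the stretches of 31 bases in annotated Ifit3 transcripts, 61.8% also occur in Ifit3b, and 54.1% of those of Ifit3b occur in Ifit3. For Oas1a 68.7% occur in Oas1g, and for Oas1g 54.6% occur in Oas1a. The shares were 0% for Ifit2 and Oas2, 0.11% for Oasl1, 1.23% for Oasl2 and 2.05% for Oas3, counting matches to any other gene, and 10.5% for Ifit1. Counts within the pairs therefore depend in part on how ambiguous reads were assigned.

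Even so, the Ifit3 pair was unequal in each library. Ifit3 exceeded Ifit3b by 11.9, 15.1 and 14.0 times, and by 10.8 ± 0.74 times (SD, n = 3) in the second quantification. The posterior interval that the authors deposited with each value was 29.2 to 34.2 TPM for Ifit3b in replicate 1, around a posterior mean of 31.7, and 368 to 386 TPM for Ifit3, around 378. The TPM values printed above, 34.8 and 415 in that library, lie above these bounds. The bounds lie around the deposited posterior mean, which is a separate column from the TPM printed here. Of the 10 genes, 10, 6 and 9 had a TPM above its upper bound in replicates 1, 2 and 3, and 0 had one below its lower bound. The Oas1 pair was closer: Oas1g exceeded Oas1a by 3.00, 2.16 and 2.17 times, and by 3.21 ± 0.66 times in the second quantification. That direction held for whole genes and turned for protein-coding transcripts, as given below.

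The RNA of 5 of the 10 genes was divided among several kinds of annotated transcript. Chromatin-associated RNA holds transcripts still being made, so intron reads are common, and an annotated retained-intron transcript shares its sequence with unspliced RNA of the same gene. These sources cannot be told apart here. The 4 IFIT genes, which have few introns, and Oas1a have protein-coding transcripts only in the annotation, so all of their level was protein-coding by construction. The other 5 genes, Oas1g, Oas2, Oas3, Oasl1 and Oasl2, have retained-intron transcripts. These held a median of 33.6% of the gene's TPM, which is the share of Oas1g, against 46.9% over 6518 protein-coding genes with such a transcript at 1 TPM or more. In the second quantification the medians were 47.9% and 45.3%, so the direction of this comparison turned with the table.

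Oasl2 had the smallest protein-coding share. Of its TPM, 66.2 ± 0.24% was on 4 retained-intron transcripts, 26.2 ± 0.95% on a transcript annotated for nonsense-mediated decay and 7.56 ± 0.92% on protein-coding transcripts (SD, n = 3). The main protein-coding form, Oasl2-201, had 57.8, 26.6 and 33.7 TPM. The retained-intron form Oasl2-208, a single exon of 2108 bases, had 214, 67.4 and 128 TPM. In Oasl1, 65.6 ± 2.68% was on the retained-intron form Oasl1-204 and 32.5 ± 3.34% on protein-coding forms. Oasl1-204 is 800 bases long and had 156, 66.6 and 84.5 TPM, while the protein-coding form Oasl1-202 had 71.9, 37.7 and 38.4 TPM.

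The genes of the OAS family covered a wide range of protein-coding shares. Oas2 was almost wholly protein-coding, at 96.4 ± 0.82% (SD, n = 3), with Oas2-201 at 261, 162 and 226 TPM. Oas3 was protein-coding at 74.9 ± 5.13%, and its retained-intron share was lowest in replicate 2. Oas1g was protein-coding at 15.4 ± 1.56%, with 33.6 ± 4.75% on a retained-intron form of 769 bases and 51.0 ± 5.27% on a form annotated for nonsense-mediated decay. Its neighbour Oas1a is annotated with 1 transcript, so a share of this kind was not open to it.

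**Figure D3:**
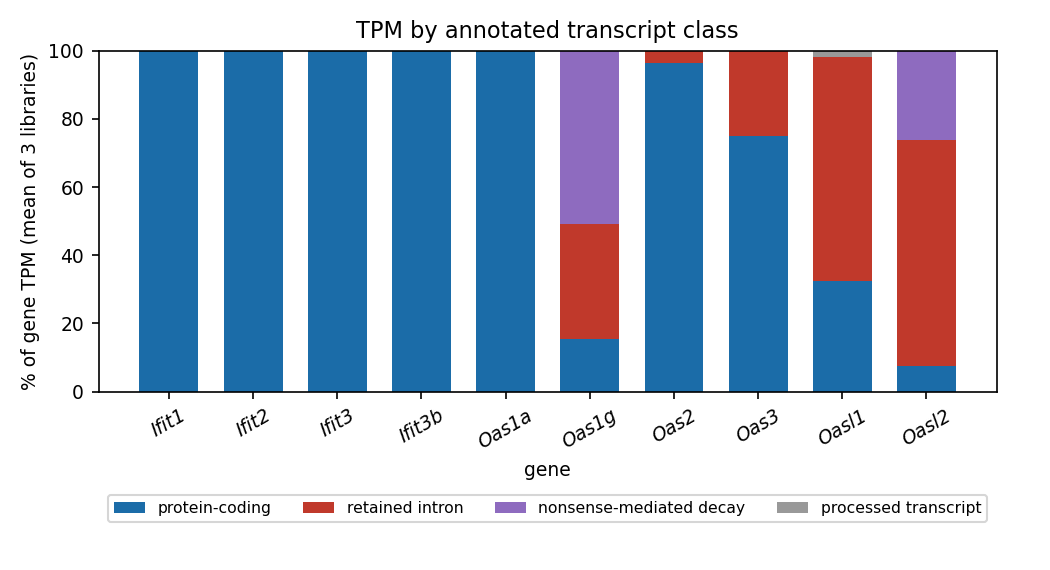
Share of each gene's TPM, in percent on the y axis, by annotated transcript class; bars are means over the 3 libraries, stacked to 100%. Protein-coding transcripts hold all of the IFIT genes and Oas1a, 96.4% of Oas2 and 7.56% of Oasl2.

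Several of the retained-intron forms are short, and a level per length weighs short transcripts up. By expected counts, which are not scaled for length, the protein-coding share was 62.5% in Oasl1, 24.7% in Oas1g and 15.5% in Oasl2. The second quantification assigned 22.5 ± 1.22%, 9.83% and 9.67 ± 4.63% of TPM to protein-coding forms of the same genes (SD, n = 3, where given). Under each of these measures the mean share of Oas1g and Oasl2 stayed under 25%. For Oas1g by counts, at 24.7 ± 2.51% (SD, n = 3), this did not hold in every library.

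Counting protein-coding transcripts alone changed the order of the genes. Ifit2 came first at 337 ± 160 TPM, then Ifit3 at 317 ± 85.4 and Oas2 at 268 ± 62.5. Oasl2, first by whole-gene level, came eighth, with 58.5, 29.5 and 34.9 TPM, a mean of 41.0 ± 15.4. Oasl1 had 71.9, 38.4 and 38.4 TPM, a mean of 49.6 ± 19.3, and lay above Oasl2 in each library. In the second quantification their protein-coding means stood the other way, at 41.2 ± 16.8 TPM for Oasl1 and 46.7 ± 11.9 for Oasl2. The order of these 2 genes, and so the place of Oasl2, depends on the quantification. Oas1g came last, with 32.6, 15.1 and 17.6 TPM, a mean of 21.7 ± 9.47, under Oas1a at 56.6 ± 13.9 and in each library below it. This measure was chosen after seeing the data.

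**Figure D4:**
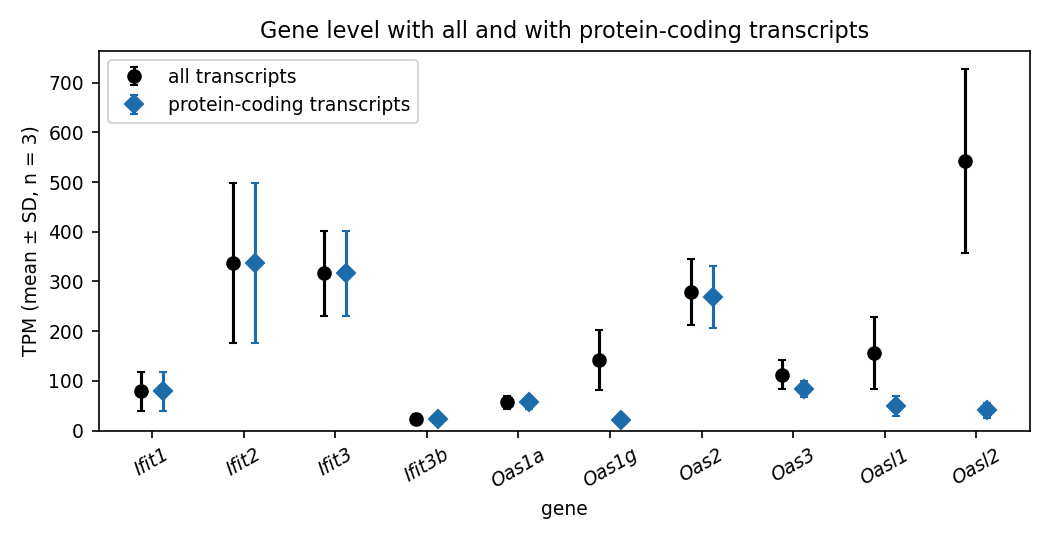
Mean TPM on the y axis for all transcripts of a gene (circles) and for its protein-coding transcripts alone (diamonds), with whiskers of ± SD over 3 libraries. The points of the IFIT genes and Oas1a stand at the same height, while Oasl2 drops from 543 to 41.0 TPM and Oas1g from 142 to 21.7 TPM.

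The genes were highest in the library of replicate 1. In log2 CPM (CPM is the count scaled to the library's counts on genes, here with TMM factors), 10 of 10 were highest there, against 32.1% of the 9540 protein-coding genes that averaged 50 counts or more, and 10 of 10 on the TPM scale, against 51.4%. The 3 libraries held 13953780, 24222661 and 16571228 expected counts, so the shallowest library was the one with the highest shares. Replicate 1 was made from 1 µg of RNA, replicate 2 from 250 ng and replicate 3 from 500 ng, so the amount of input RNA cannot be told apart from the replicate. In bulk RNA a smaller number of expressing cells and less RNA per cell cannot be told apart either. With 1 library of each kind there is no test of this difference.

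Together the 10 genes took 0.529% of the counts on genes in replicate 1 (Wilson 95% interval 0.525 to 0.533), 0.334% in replicate 2 (0.332 to 0.336) and 0.340% in replicate 3 (0.338 to 0.343). These intervals cover counting error only. The IFIT genes held 0.249, 0.147 and 0.132%, and the OAS and OAS-like genes 0.281, 0.187 and 0.208%. Replicates 2 and 3 were close to each other for the whole set, and replicate 1 stood above both.

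The size of the step differed between genes. Relative to replicate 2, replicate 1 was higher by 0.85 on the log2 scale for Ifit2, 0.81 for Oasl2, 0.77 for Ifit1, 0.76 for Oas1g, 0.69 for Oasl1 and 0.61 for Ifit3b. It was higher by 0.36 for Oas1a, 0.36 for Oas2, 0.27 for Ifit3 and 0.21 for Oas3. So 6 of 10 genes were highest in replicate 1 and at least 1.5 times above replicate 2, against 7.31% of the 9540 genes. The median protein-coding gene differed by -0.04 between these libraries in CPM and by 0.29 in TPM, so TPM differences between libraries carry a shift common to all genes.

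The spread over libraries was wider than that of the median gene and rested on replicate 1. The median SD of log2 CPM was 0.40 over the 10 genes and 0.19 over the 9540 genes, and 7 of 10 genes lay above the latter. Without replicate 1 it was 0.139 over the 10 genes and 0.138 over all. Ifit1 had the widest spread, with an SD of 0.56 and a 2.14-fold range, and Oas3 the narrowest, with 0.16 and 1.25-fold. Ifit3b, with the fewest reads (730, 806 and 479 expected counts), had an SD of 0.43, against 0.057 from counting alone.

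Between replicates 2 and 3 the IFIT genes shared a direction in CPM, and the OAS and OAS-like genes did not. In CPM, 4 of 4 IFIT genes were lower in replicate 3 than in replicate 2, against 51.6% of the 9540 genes. Their differences were -0.33 for Ifit1, -0.32 for Ifit3, -0.21 for Ifit3b and -0.04 for Ifit2 on the log2 scale. Of the OAS and OAS-like genes, 4 of 6 were higher in replicate 3, while 51.6% of the 9540 genes were lower there. With 6 genes, that count is close to the split over all genes. The rises were 0.31 for Oasl2, 0.19 for Oas2, 0.18 for Oas1a and 0.16 for Oas1g, while Oas3 differed by -0.11 and Oasl1 by -0.21. These counts were the same with DESeq2 size factors, without scaling factors and in the second quantification. On the TPM scale, where the median protein-coding gene was 0.26 higher in replicate 3, only 1 of 4 IFIT genes was lower there and 6 of 6 OAS and OAS-like genes were higher. The share of all genes in each direction is not given here for TPM. The difference between the families was not tested.

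**Figure D5:**
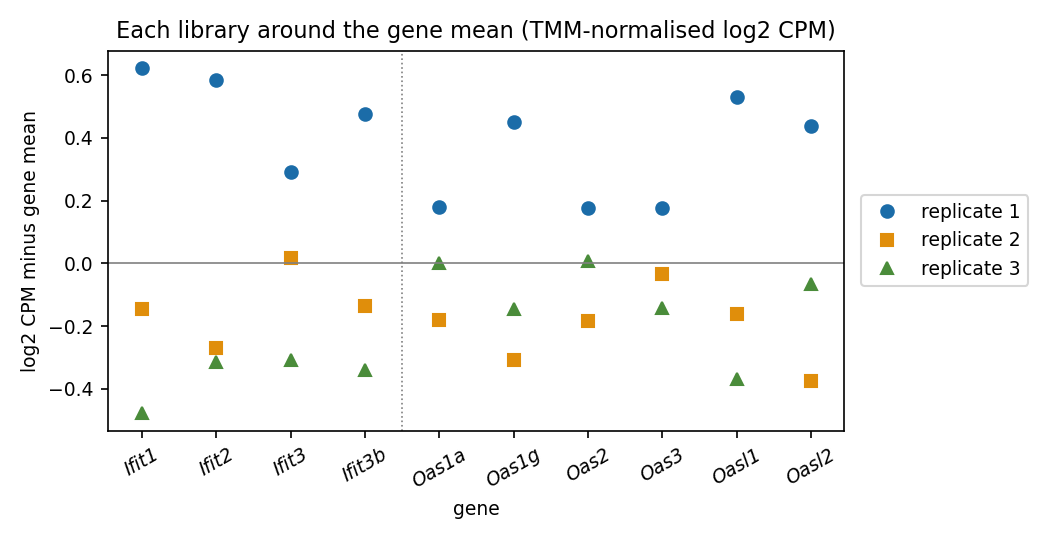
Difference of each library from the gene's own mean in TMM-normalised log2 CPM on the y axis, with genes on the x axis and a dotted line between the IFIT and the OAS genes; each point is 1 library. Replicate 1 is highest for all 10 genes, and replicate 3 lies below replicate 2 for all 4 IFIT genes and above it for Oas1a, Oas1g, Oas2 and Oasl2.

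The other annotated genes of the 2 families were mostly low. Of 8, 4 reached 1 TPM in every library, near the 45.2% of all protein-coding genes, and the median level of the 8 was 2.29 TPM. Oas1b, whose C57BL/6 allele is annotated as a polymorphic pseudogene and is known to carry a premature stop, had 47.4, 23.1 and 32.2 TPM, a mean of 34.2 ± 12.3 (SD, n = 3). Ifit1bl1 had 47.3, 8.62 and 12.0 TPM, a mean of 22.6 ± 21.4, and its range of 4.22-fold in CPM exceeded that of each of the 10 genes. Oas1c had 5.37 ± 1.49 TPM and Oas1h 4.0 ± 1.74, and Oas1d was listed at 0.

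Genes that act after the synthetases in the 2-5A pathway included Abce1 and Pde12. Abce1, a ribosome recycling factor known also to hold back this pathway, had 20.0 ± 2.85 TPM, and Pde12, a phosphodiesterase that degrades 2-5A, had 3.18 ± 0.55. Both reached 1 TPM in every library. Of the enzymes that methylate the mRNA cap, Cmtr1 had 100.0 ± 7.54 TPM, Rnmt 25.2 ± 3.34 and Cmtr2 0.70 ± 0.22. In CPM 0 of the 3 were highest in replicate 1, against 32.1% of protein-coding genes averaging 50 counts or more. Cmtr2 averaged fewer than 50 counts, and the other 2 averaged more.

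Genes that carry the interferon signal were present with the 2 families. Of 13 signalling genes, 12 reached 1 TPM in every library, against 45.2% of protein-coding genes. In CPM 9 of 13 were highest in replicate 1, against 32.1% of protein-coding genes averaging 50 counts or more. Of the 13, 12 averaged 50 counts or more, and Ifnb1, which is among the 9, did not. The ISGF3 genes Stat2 and Irf9 had 615 ± 155 and 40.6 ± 10.3 TPM (SD, n = 3). Irf7, the target of Oasl1, had 467, 237 and 281 TPM, a mean of 328 ± 122, and Usp18, an inhibitor of the interferon receptor, had 75.0 ± 44.1 TPM. Both were highest in replicate 1, as the 10 genes were. Ifnb1, the gene of interferon beta, had 2.09, 0.30 and 0.56 TPM from 13, 4 and 4 expected counts, so its order over libraries rests on few reads.

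Most other genes next to the clusters were low in the gene table. Of 8 neighbours, 2 reached 1 TPM in every library, against 45.2% of protein-coding genes. Lipa, a lysosomal lipase beside the Ifit cluster, had 65.6 ± 10.5 TPM, a mean above those of Oas1a and Ifit3b. Kif20b, a kinesin gene, had 3.43 ± 0.44 TPM. Ch25h, an interferon-responsive hydroxylase gene beside Lipa, had 0.04 TPM. In the gene table Dtx1 and Rph3a, near the Oas cluster, were listed at 0, while the second quantification gave Dtx1 4.08 ± 0.61 TPM. Oas2 overlaps Gm43068, a gene model not yet tested by experiment on the opposite strand, by 1273 bases, and this model had 310, 280 and 175 expected counts. Whether counting used strand is not given in the sources used here, so reads there may belong to either gene.

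The 5 genes outside the list whose library pattern lay nearest to the median pattern of the 10 were Olfr99, Kin, Rgl1, Med26 and Rarg. The measure was the root mean square difference of centred log2 CPM over 3 libraries, and it was 0.0014, 0.0058, 0.0067, 0.0083 and 0.0096, against a median of 0.35 over 9530 genes. Among these Rgl1 had 95.3, 44.6 and 53.2 TPM. The distances of the 10 genes themselves ran from 0.071 for Ifit3b to 0.205 for Oas2. A profile over 3 libraries has few degrees of freedom, and nothing about these genes beyond the pattern was compared.

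The labelled cell type was checked against markers. All 6 macrophage genes were present, with Adgre1, the F4/80 antigen, at 334 ± 54.4 TPM. Their summed level was 861, 706 and 782 TPM in replicates 1, 2 and 3. In CPM 2 of 6 were highest in replicate 1, near the 32.1% of protein-coding genes averaging 50 counts or more. Of 10 markers of other blood and marrow cells, only Ccr9 reached 1 TPM in every library in the gene table, at 3.30 ± 0.96. In the second quantification 3 of 10 did: Ccr9, Siglech at 2.19, 2.51 and 2.07 TPM, and Col1a1 at 1.74, 1.49 and 1.65 TPM. In the gene table the summed level of those 10 markers was 5.96, 3.90 and 5.04 TPM, and 1.60, 1.43 and 1.96 TPM without Ccr9. Their part in the difference between libraries was not tested.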

How the data were processed

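The data were the deposited tables of 3 libraries of macrophage chromatin RNA, in 1 group. Per the notes deposited with each library, values refer to mm10 and annotation M21. Programs behind the tables were not given in the sources used here. Both the gene table and first transcript table hold the authors' expected counts, estimated by a model and rounded here for CPM. Per the file headers, the authors' TPM and FPKM are scaled for an effective length given in the same tables. The deposited posterior mean TPM and its credibility bounds come from the same tables, and the level of the bounds is not stated. The second quantification is a further transcript table, summed here per gene. FPKM was an alternative unit.

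Of 81881 entries 55536 were genes. The other entries took 2.46, 0.484 and 0.327% of counts and stayed out of library sizes, but not out of the deposited TPM. Totals were 13953780, 24222661 and 16571228 expected counts. Scaled to the counts on genes, 3 counts, the limit a count of 0 allows, are 0.22, 0.124 and 0.182 CPM. At most 0.356% of genes had equal counts in a pair of libraries.

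CPM used TMM factors (edgeR 4.0.16 in R 4.3.3) and a prior count of 2. DESeq2 1.42.0 size factors, other pseudocounts, no filter, the second quantification and leaving out each library were alternatives. Methods were tested on simulated counts. With 1 group no test between groups was made, and nothing was adjusted. The 10 genes, the gene lists and the alternatives were chosen with earlier results of these data known. Text names all 10 genes, listed relatives at 1 TPM or more in every library or at the extremes of their list, and the 5 nearest library patterns among genes averaging 50 counts or more. Some genes of the lists are not reported here. Promoter windows were RefSeq GRCm38.p6, 250 bases before to 50 after the start, aligned in biopython 1.88. Other steps used pandas 2.3.3 and numpy 2.4.6.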

Additional observations from a re-analysis of the deposited data

How the results depend on the processing

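The counts of 10 of 10 genes at 1 TPM and 10 of 10 highest in replicate 1 were the same under each alternative that could give them. Of 70 alternative values of single gene levels, 67 moved by less than 1 SD over libraries and 3 fell by more. Much of this count was fixed in advance, since leaving out 1 of 3 libraries cannot move a mean by 1 SD. The IFIT genes and Oas1a also could not change with protein-coding transcripts alone. The 3 falls all came with protein-coding transcripts alone: Oas1g 21.7, Oasl1 49.6 and Oasl2 41.0 TPM. That measure, chosen after seeing the data, took the median level of the 10 genes from 149 to 67.9 TPM, and leaving out a library gave 112 to 174 TPM. The distance of the list median above all protein-coding genes, 6.41 on the log2 scale, became 7.59 with a pseudocount of 0.1, 3.59 against genes averaging 1 TPM or more and 5.68 in the second quantification, and 6.10 to 6.62 when a library was left out. The median SD of log2 CPM, 0.40, ranged from 0.139 without replicate 1 to 0.443 when a library was left out. The median retained-intron share, 33.6% against 46.9% over all such genes, became 47.9% against 45.3% in the second quantification, and ranged from 30.9 to 35.0% without 1 library. Apart from the construction of each alternative, the cause was not tested. No paired analysis was possible because the series has 1 group. Depth limits Ifnb1 and the lowest family genes, and read sharing limits the Ifit3 and Oas1 pairs.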

Other observations

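Genes of the cytosolic and nuclear response to double-stranded RNA and other nucleic acid, whose products act beside the OAS and IFIT proteins, were also abundant. All 6 listed genes reached 1 TPM in every library, against 45.2% of protein-coding genes, with a median level of 158 TPM. In CPM 4 of 6 were highest in replicate 1, against 32.1% of protein-coding genes averaging 50 counts or more. Dhx58 and Adar were highest in replicate 2. Ddx58, which encodes the receptor RIG-I, had 232 ± 77.1 TPM (SD, n = 3), and Ifih1, which encodes MDA5, had 102 ± 43.6. Eif2ak2, the gene of the double-stranded RNA kinase PKR, had 211 ± 59.9 TPM, and Adar, whose product edits double-stranded RNA, had 176 ± 23.5. Zbp1, a sensor of Z-form nucleic acid, had 139 ± 43.9 TPM and Dhx58, the gene of LGP2, had 114 ± 19.5.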
